A study of Mus musculus with 17 samples.

Results

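Tshz2-positive excitatory neurons are glutamatergic neurons that carry high levels of Tshz2, a zinc-finger transcription factor of the teashirt family. They were chosen by their own UMI counts and deposited labels: nuclei that the deposited metadata label as neurons and not as doublets, that lie outside deposited cluster 13, and that hold at least 3 UMIs (unique molecular identifiers, counted transcript molecules) of Slc17a7, the vesicular glutamate transporter VGLUT1, and at least 5 of Tshz2. At most 1 UMI was allowed for Gad1 and Gad2 together, for Foxp2, for Prox1 and for Tcf7l2, and at most 2 for Cux2 and for Rorb. The rule found 427 nuclei, which is 0.150% of the 284074 nuclei of the series, 0.299% of its 142659 neurons and 4.78% of the 8937 neurons that passed the Slc17a7, Gad1 and Gad2 limits. The last group is called Slc17a7-positive neurons throughout. Nuclei of 1 animal share their source, so conditions were compared over animals.

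In the cerebral cortex Tshz2 is best known from near-projecting neurons of the deep layers, which send axons only over short distances, and it is also read out in other cortical and hippocampal-formation neurons. Malat1 is an abundant noncoding RNA of the nucleus, held in the speckles where splicing factors gather. An antisense oligonucleotide (ASO) paired with it recruits RNase H1, which cleaves the RNA, so the Malat1 level serves as a readout of active oligonucleotide in a cell. Binding to the transferrin receptor (TfR) on brain vessels is used to carry large molecules across the blood-brain barrier.

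The study compared ways of delivering a Malat1 ASO from the blood to the brain. Posterior brain of 17 mice was measured by droplet-based single-nucleus RNA sequencing of sorted nuclei. The labels give every mouse, controls included, as a female of 2.3 months with the genotype hTfR KI HOM, a homozygote of the Human TfR knock-in strain. They received 4 intravenous doses over 24 days, with harvest 72 hours past the final dose. There were 4 saline animals, 4 that received the free Malat1 ASO at 2 mg per kg, 6 that received anti-TfR:Malat1, and 3 that received OTV:Malat1. Both conjugates were given at 50 mg per kg. OTV stands for an oligonucleotide carried by a transport vehicle that binds TfR, and anti-TfR:Malat1 for the oligonucleotide on an antibody against TfR. Each mouse is 1 sample, and every p-value below is over animals.

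Each animal gave 13841 to 18365 nuclei and 6793 to 9912 neurons. In oligodendrocytes of the same tissue Malat1 took 7.92% to 12.2% of UMIs in saline animals and 1.38% to 1.78% in OTV:Malat1 animals, with no overlap, so there the targeted transcript went with the labels. One library stood apart. CPM here and throughout is a gene's UMIs scaled to a total of 1000000 per animal and cell set. Malat1 ASO animal 1, labelled female, had no UMI of Xist, the transcript of the inactive X chromosome, in its 68 Tshz2-positive nuclei, against 769 to 1273 CPM in the 16 other animals. In its other neurons Xist was at 0.764 CPM, and the Y-linked transcripts Ddx3y, Eif2s3y, Kdm5d and Uty were also at 0 in its Tshz2-positive nuclei. The cause was not tested, and the exact tests reported for free ASO are given with and without it. The gene-wide fits were not run without it; in the 8-animal fit it is the 1 free ASO animal. Barcodes were shared between animals in 10044 cases over the series and in 0 among the Tshz2-positive nuclei.

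The 427 nuclei were spread over all 17 animals, and unevenly. Saline animals 1 to 4 gave 57, 23, 13 and 9 nuclei. Malat1 ASO animals gave 68, 10, 10 and 14, anti-TfR:Malat1 animals 34, 47, 30, 12, 19 and 32, and OTV:Malat1 animals 13, 20 and 16. The highest number in the saline and in the free ASO group came from the animal in deposited batch 1, a batch that holds no OTV:Malat1 animal; what the batches stand for is not given in the sources used here. As a share of neurons the nuclei made up 0.341% ± 0.333 (SD, n = 4) under saline, 0.346% ± 0.425 (n = 4) under free ASO, 0.342% ± 0.154 (n = 6) under anti-TfR:Malat1 and 0.191% ± 0.0426 (n = 3) under OTV:Malat1. The groups overlapped, and the 3 two-sided exact permutation tests against saline gave p = 0.686, 0.962 and 0.943 for OTV:Malat1, anti-TfR:Malat1 and free ASO, each 0.962 after adjustment. Without saline animal 1 the OTV:Malat1 difference from saline was 0.0122 percentage points instead of -0.150, and without Malat1 ASO animal 1 the free ASO difference was -0.207 instead of 0.00493. The batch 1 animals were also rich in Slc17a7-positive neurons as a whole, which made up 17.6% of neurons in saline animal 1 and 13.1% in Malat1 ASO animal 1 against 3.32% to 5.96% in the other saline and free ASO animals. Set against Slc17a7-positive neurons, the Tshz2-positive share was 4.04% ± 0.872 under saline and 4.37% ± 0.798 under OTV:Malat1. The rule counts raw UMIs, so these shares can move with depth. Median UMIs per neuron ran from 3678 to 6070 under saline, 3650 to 4918 under free ASO, 3780 to 5258 under anti-TfR:Malat1 and 3626 to 3979 under OTV:Malat1. The highest value of each of the first 3 groups was in batch 1. The part of depth in the shares was not tested.

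Tshz2 itself was the value that chose these nuclei and is given as a description. Members held a median of 12 Tshz2 UMIs and up to 54. The 43 nuclei just inside the limit, with 5 UMIs, had a median depth of 6297 UMIs, and the 35 just outside it, with 4 UMIs, had 5425. Vwc2l, a gene not used by the rule, was at 157 CPM just inside the limit, 58.3 CPM just outside it and 324 CPM in the 323 nuclei with 8 or more Tshz2 UMIs. Below the limit it was 115 CPM in the 49 nuclei with 3 Tshz2 UMIs and 25.5 CPM in the 4416 with 0, so nuclei on both sides of the limit lay between those extremes. Other genes showed no such step. Tox was at 361 CPM just inside the limit and 328 CPM just outside it, and Etv1 went the other way, at 89.3 and 121 CPM. Depth per nucleus ran from 1978 to 18294 UMIs with a median of 6075, close to the 6470 of other Slc17a7-positive neurons and above the 4278 of other neurons. The deposited label scores, the highest class probability given to a nucleus, were 1 in 425 of the 427 nuclei.

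The label was checked against markers outside the rule. Pan-excitatory genes were near the level of other Slc17a7-positive neurons. Nrgn, a postsynaptic calmodulin binder, was at 221 against 219 CPM, and Camk2a, the excitatory-synapse kinase, at 692 against 854 CPM. Markers of other cell types were read as whole lists. The 8 inhibitory markers outside the rule summed to 201 CPM against 306 in other Slc17a7-positive neurons. Adarb2 alone, at 22.4 against 245 CPM, was lower by more than the whole sum. Among the rest the inhibitory transporter Slc32a1 was at 3.40 CPM and Dlx6os1 at 0, but Nxph1, a secreted neurexin ligand, was at 113 against 16.3 CPM and higher in 15 of 17 animals. Sst (somatostatin), at 17.5 against 11.05 CPM, was higher in 15 of 17 and Lamp5, at 35.9 against 24.1 CPM, in 12 of 17. The 4 markers of oligodendrocyte precursors summed to 208 against 171 CPM. Of these Pdgfra was at 0.140 CPM, and Lhfpl3 made up most of the sum at 202 against 164 CPM, higher in 11 of 17 animals. The 5 astrocyte markers summed to 311 against 368 CPM, with Aqp4 and Gfap at 0 and the glutamate transporter Slc1a2 at 307 CPM. The 6 microglial markers summed to 67.2 against 60.5 CPM, the 6 oligodendrocyte markers to 113 against 143 CPM and the 6 vascular markers to 2.37 against 2.44 CPM, with Flt1 and Slc6a13 at 0.

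These sums were also compared between treatment groups, with no test. The microglial sum per animal ran from 62.1 to 140 CPM under saline, from 31.4 to 64.1 CPM under free ASO, from 16.4 to 72.6 CPM under anti-TfR:Malat1 and from 57.6 to 111 CPM under OTV:Malat1, with means of 97.2, 47.5, 47.8 and 92.1 CPM. With Gad1 and Gad2 included, the inhibitory sum ran from 131 to 274 CPM under saline, from 64.8 to 251 CPM under free ASO, from 72.4 to 411 CPM under anti-TfR:Malat1 and from 216 to 357 CPM under OTV:Malat1. The oligodendrocyte sum ran from 43.8 to 149 CPM under saline, from 62.8 to 158 CPM under free ASO, from 62.1 to 161 CPM under anti-TfR:Malat1 and from 80.6 to 152 CPM under OTV:Malat1. The groups overlapped in each sum, and the part of these transcripts in the results was not tested.

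The 6 near-projecting markers other than Tshz2 summed to 326 against 58.3 CPM in other Slc17a7-positive neurons, most of it from Vwc2l, at 276 CPM. The others were at low levels. Fezf2, a selector of deep-layer fate, was at 18.0 against 9.47 CPM and higher in 13 of 17 animals, and Rapgef3 at 10.7 against 1.39 CPM in 11 of 17. Trhr, the receptor for thyrotropin-releasing hormone, was at 16.6 against 9.43 CPM in 10 of 17, and Slc17a8 (VGLUT3) at 4.62 against 0.217 CPM in 7 of 17. Sla2 was at 0.366 against 1.11 CPM. Layer 5 intratelencephalic markers were above the level of other Slc17a7-positive neurons, with Etv1 higher in 17 of 17 animals, Il1rapl2 at 603 against 375 CPM in 15 of 17, Parm1 at 89.7 against 35.9 CPM in 14 of 17 and Deptor at 63.2 against 28.4 CPM in 13 of 17. Fn1, a marker of the subiculum, was at 34.3 against 1.47 CPM, higher in 12 of 17 animals. Of the 4 subcortical excitatory markers Slc17a6 (VGLUT2) was at 41.2 against 13.4 CPM, higher in 13 of 17. Lef1 at 2.01 against 16.96 CPM and Zic1 at 0.251 against 2.83 CPM were lower in 16 of 17. Zic4 was at 0.819 against 1.03 CPM, lower in 15 of 17. These nuclei held 57275 to 467783 UMIs per animal, so such levels rest on few or no UMIs in an animal. A gene with 0 UMIs here counts as lower wherever the larger reference holds any, so the counts of animals for Lef1, Zic1 and Zic4 say little. The nuclei are called by their rule and not by a layer.

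The genes that went with Tshz2 were found by comparing, in each animal, these nuclei with its other Slc17a7-positive neurons. This is a description of the chosen nuclei and no test was run. Among genes at 50 CPM or more outside the rule, 49 of 3318 were higher in all 17 animals and 81 of 3307 were lower in all 17. The median gene at 20 CPM or more differed by -0.19 on the log2(CPM + 1) scale, and the differences below stand against that value.

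Vwc2l, which encodes a secreted protein with a von Willebrand factor C domain (chromosome 1, 70725715 to 70885397, plus strand, mm10), led the list. Its level was 276 CPM against 36.6 CPM in other Slc17a7-positive neurons, a difference of 2.80 ± 0.880 (SD over 17 animals, log2). In the animals it ran from 56.1 to 418 CPM in Tshz2-positive nuclei and from 20.7 to 65.8 CPM in the others, and the ranges overlapped only at the lowest Tshz2-positive value. Coro6, a member of the actin-binding coronin family (chromosome 11, 77462411 to 77470484, plus strand), was at 61.2 against 9.87 CPM, a log2 difference of 2.37. Tox, a high-mobility-group nuclear factor (chromosome 4, 6686353 to 6991557, minus strand), was at 593 against 135 CPM, with 306 CPM in its lowest animal above 201 CPM, the highest of the others. Etv1, an ETS-family transcription factor of layer 5 (chromosome 12, 38779380 to 38870484, plus strand), was at 234 against 69.8 CPM, and here too the lowest animal, at 131 CPM, was above the highest of the others, at 87.6 CPM.

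Of the 20 genes with the highest log2 differences, which ended at 0.95, some are described here by role, a choice made after their values were seen. Bmper (77.9 against 22.5 CPM), a regulator of bone morphogenetic proteins, Sulf2 (70.5 against 34.2 CPM), which edits heparan sulphate, and Gpc6 (765 against 278 CPM), a heparan sulphate proteoglycan, act outside the cell. Cntn6 (318 against 138 CPM) is a contactin, an adhesion molecule of axons. Ldb2, a LIM-domain cofactor, was at 803 against 326 CPM, and Satb1, a chromatin organiser, at 238 against 110 CPM. Grm8, Mcc, Rhbdl3, Sgpp2, Ank1, Xkr6, Sgcz, Man2a1, Gm11418 and Gm28905 completed the 20. Cntn4, another contactin, at 1950 against 1090 CPM, and Zfpm2, a transcriptional cofactor, at 771 against 467 CPM, were also higher in all 17 animals, with smaller log2 differences of 0.81 and 0.69. High values of some of these genes were shared with neurons chosen in the same way for another gene, namely 350 Cux2-chosen, 503 Rorb-chosen and 725 Foxp2-chosen nuclei. Satb1 was at 285 CPM in the Rorb-chosen nuclei, and Tshz2-positive nuclei were above them in 5 of 17 animals. Zfpm2 was at 1568 CPM in the Foxp2-chosen nuclei, with Tshz2-positive nuclei above them in 0 of 17 animals. Gpc6 was at 652 CPM and Cntn4 at 1738 CPM in the Cux2-chosen nuclei, with Tshz2-positive nuclei higher in 10 and 11 of 17 animals, and Sgcz was at 3034 CPM in the Rorb-chosen nuclei against 3169 here, higher in 10 of 17. Tox and Ldb2 were higher here in 17 of 17 animals than in each of the 3 sets, at 61.2, 220 and 128 CPM for Tox and 252, 189 and 460 CPM for Ldb2 in the order Cux2, Rorb and Foxp2.

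The genes lower in all 17 animals were led by Adarb2, a brain-specific relative of the RNA-editing ADAR enzymes, at 22.4 against 245 CPM. Zbtb20, a zinc-finger repressor known from hippocampal development, was at 94.0 against 875 CPM. Nfia and Nfib, nuclear factor I proteins, were at 52.4 against 265 CPM and at 289 against 491 CPM. 4921539H07Rik, Glis3, Gm10754, Sema5a, Sdk1, Chrna7 and Ccbe1 made up the rest of the 10 with the lowest log2 differences. Some of these 10 were at 0 in single animals, where the small number of nuclei limits the value. Low values of several of these genes were shared with the neurons chosen for another gene. Zbtb20 was at 75.7, 93.0 and 68.2 CPM and Adarb2 at 43.3, 14.4 and 50.4 CPM in the Cux2-chosen, Rorb-chosen and Foxp2-chosen nuclei. Nfia was at 64.2 and 28.9 CPM in the Cux2-chosen and Rorb-chosen but at 709 CPM in the Foxp2-chosen nuclei. Other genes differed among these sets. Sdk1 was at 57.3 CPM here, 99.5 in the Cux2-chosen, 378 in the Rorb-chosen and 135 in the Foxp2-chosen nuclei. Grm8, a presynaptic glutamate receptor, was at 945 CPM here, 251 and 125 CPM in the Cux2-chosen and Rorb-chosen and 1156 in the Foxp2-chosen nuclei.

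**Figure D1:**
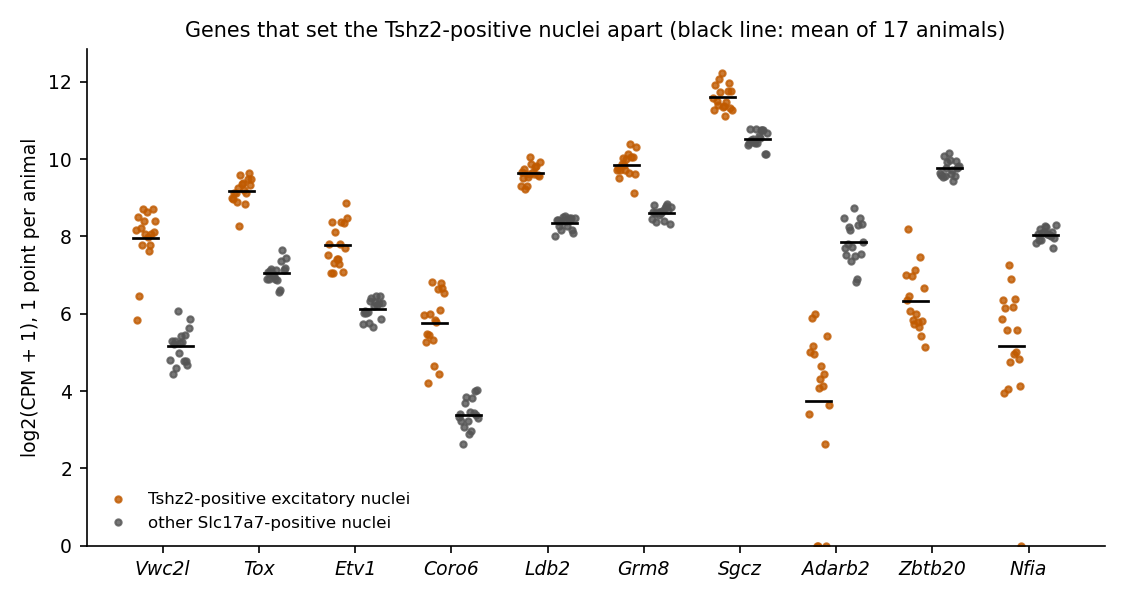
Level of 10 genes in Tshz2-positive nuclei (orange) and in the other Slc17a7-positive nuclei (grey) of the same 17 animals, on a log2(CPM + 1) axis; each point is 1 animal and the black line the mean. Vwc2l, Tox, Etv1, Coro6, Ldb2, Grm8 and Sgcz lie higher and Adarb2, Zbtb20 and Nfia lower in all 17 animals.

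Ion channels and receptors were described by lists. Of 24 glutamate receptor genes at 20 CPM or more, Grm7 and Grm8 were higher in every animal (8.33%) and 5 were lower in every animal (20.8%), among them Gria1, Grin2a and Grin2b, against 0.714% and 1.40% of all such genes. Gria1, an AMPA receptor subunit, was at 861 against 1446 CPM, and Grin2b, an NMDA receptor subunit, at 1302 against 1722 CPM. The neurons chosen for another gene were low in Gria1 too, at 623 CPM in the Cux2-chosen, 414 in the Rorb-chosen and 766 in the Foxp2-chosen nuclei, and the Tshz2-positive nuclei were above the first in 16 of 17 animals and above the second in 17 of 17. Grin2b was at 1629, 1300 and 1499 CPM in the same order. Grik1, a kainate receptor subunit, was at 318 against 64.0 CPM and higher in 15 of 17 animals. Of 26 potassium channel genes Kcnip4, a Kv4 channel partner, was higher in every animal at 12358 against 9270 CPM. The Cux2-chosen nuclei held more Kcnip4, at 13161 CPM, with Tshz2-positive nuclei above them in 5 of 17 animals, and the Rorb-chosen nuclei more Grm7, at 3235 against 2616 CPM, with Tshz2-positive nuclei above them in 1 of 17. The nuclear noncoding RNAs Meg3, at 8722 against 6725 CPM, and Snhg11, at 5455 against 4481 CPM, were higher in all 17, and Malat1 was lower in 14 of 17 animals, at 62285 against 69586 CPM. The 15 immediate early genes, which report recent activity, summed to 667 against 928 CPM, and 0 of the 9 at 20 CPM or more differed in one direction in all animals.

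The nuclei were not uniform. The deposited clustering at resolution 0.4 placed 131 of them in cluster 8, 111 in cluster 6, 71 in cluster 7, 63 in cluster 3, 38 in cluster 5 and 9 in cluster 10, with 4 others elsewhere. Members were 18.6% of the Slc17a7-positive neurons of cluster 8 and 1.59% of those of cluster 5. The clusters were made by the authors from the expression of these nuclei among all others, so differences between them are a description.

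Of the 5 clusters that held most of these nuclei, cluster 8, present in all 17 animals, was richest in Nell1 (469 CPM) and Chrm2, a muscarinic acetylcholine receptor (194 CPM). Cluster 6 held the deepest nuclei, with a median of 8351 UMIs, and 56 of its 111 came from batch 1. Within the 5 it was richest in Etv1 (392 CPM), in Unc5c, a netrin receptor (1184 CPM), and in Ndst4, a heparan sulphate enzyme that stood at 314 CPM against 32.7 in the other members. It also held most Fn1, at 83.7 CPM.

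Cluster 7 carried most of the near-projecting markers. Vwc2l was at 786 CPM there, against 62.2 to 291 CPM in clusters 8, 6, 3 and 5. At an equal depth of 2000 UMIs 56.3% of its nuclei had a Vwc2l UMI (66.2% before thinning), against 23.9% of all Tshz2-positive nuclei (39.8%), 4.40% of other Slc17a7-positive neurons (10.9%) and 0.450% of oligodendrocytes (0.500%), a cell type that should lack it. Nxph1 (chromosome 6, 8948431 to 9249032, plus strand), was at 736 against 22.4 CPM in the other members, and Tle4, a corepressor of deep-layer neurons, at 651 against 83.0 CPM. Slc17a8, Trhr, Rapgef3 and Fezf2 were at 26.4, 41.0, 44.0 and 44.0 CPM, and of these Trhr was as high in cluster 5, at 42.4 CPM. Within the 5, cluster 3 was richest in Lamp5, Col19a1, Pde7b and Rasgrf2, with Pde7b, a phosphodiesterase, at 384 against 68.2 CPM in the other members. Cluster 5 was richest in Trpm3, a cation channel, at 2836 CPM, and in Adamtsl1 and Lypd1, the latter a modulator of nicotinic receptors at 360 against 36.0 CPM.

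**Figure D2:**
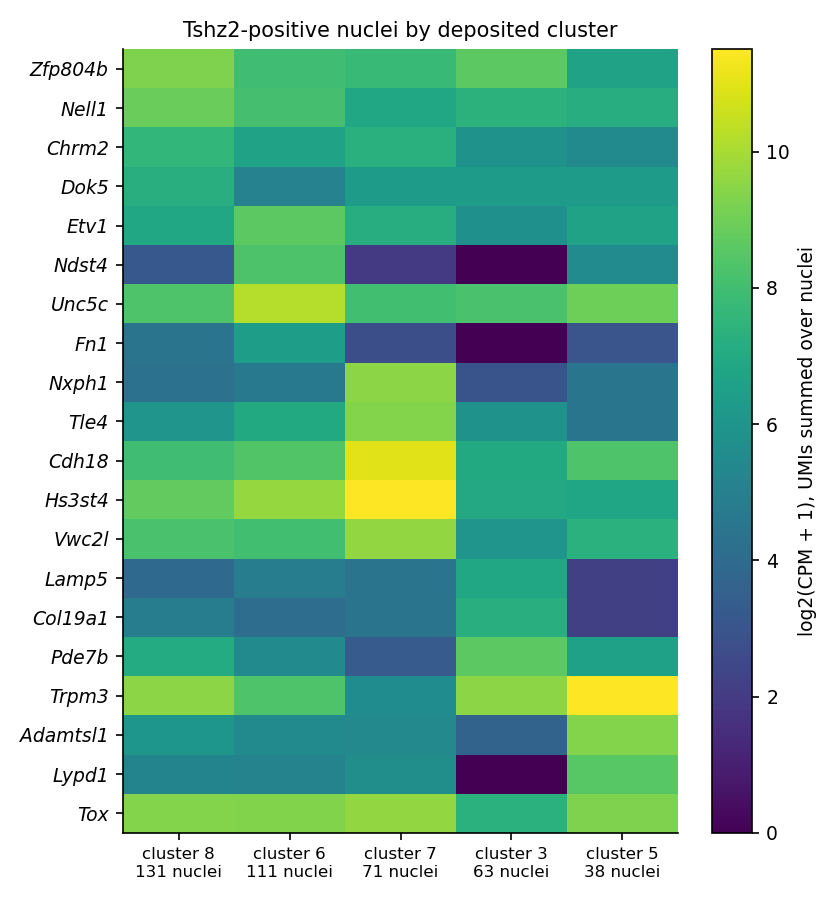
Level of 20 genes in the Tshz2-positive nuclei of the 5 clusters that hold most of them, as colour on a log2(CPM + 1) scale with UMIs summed over the nuclei of all animals. Cluster 7 is brightest for Nxph1, Tle4, Cdh18, Hs3st4 and Vwc2l, cluster 6 for Etv1 and Unc5c, and Tox is at 161 CPM or more in each of the 5.

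The targeted transcript was measured next. Malat1 (chromosome 19, 5795690 to 5802672, minus strand, mm10, annotated as a lincRNA) took 7.34%, 6.92%, 8.86% and 4.01% of the UMIs of Tshz2-positive nuclei in saline animals 1 to 4. Under free ASO the shares were 7.14%, 5.64%, 9.004% and 4.65%. Under anti-TfR:Malat1 they were 4.20%, 5.56%, 8.17%, 7.13%, 5.62% and 5.86%, and under OTV:Malat1 5.62%, 5.36% and 4.80%. All groups overlapped: saline animal 4 was below every OTV:Malat1 animal, and the other 3 saline animals were above them. The counting error of UMIs is small beside this spread, since the 95% Wilson interval of the shallowest animal, saline animal 4, ran from 3.85% to 4.17%. That interval leaves out the sampling of nuclei, and the 9 nuclei of that animal ran from 2.13% to 5.52%.

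No comparison of Malat1 between groups held up in the exact permutation tests on log2(CPM + 1), 6 in all, each two-sided. OTV:Malat1 was below saline by 0.31 (exact p = 0.343, adjusted 0.754), and with 3 against 4 animals the smallest p that test allows is 0.0571. Within batches 2, 3 and 4 the OTV:Malat1 minus saline difference was -0.30, -0.73 and 0.26. It rested in part on single saline animals. Without saline animal 4 it was -0.55, with the 3 OTV:Malat1 animals below the 3 others (exact p = 0.10, the smallest that 3 against 3 allows), and without saline animal 3 it was -0.16 (exact p = 0.60). The anti-TfR:Malat1 minus saline difference was -0.13 (exact p = 0.629, adjusted 0.754), and within batches 1 to 4 it was -0.80, -0.31, -0.22 and 0.52. Without saline animal 4 it was -0.36 and without saline animal 3 it was 0.02, and the other values without 1 animal ran from -0.22 to -0.03. The free ASO minus saline difference was -0.02 (exact p = 0.943), within batches 1 to 4 it was -0.04, -0.29, 0.02 and 0.21, and without 1 animal it ran from -0.26 to 0.13 (-0.08 without Malat1 ASO animal 1). These comparisons share the saline animals. The OTV:Malat1 level minus that of anti-TfR:Malat1 was -0.18 (exact p = 0.452), and minus that of free ASO it was -0.29 (exact p = 0.343; -0.24 without Malat1 ASO animal 1). Without 1 animal these ran from -0.28 to -0.09 and from -0.44 to -0.12. Saline itself spanned 4.01% to 8.86%, with batch 4 animals low in the saline and free ASO groups.

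**Figure D3:**
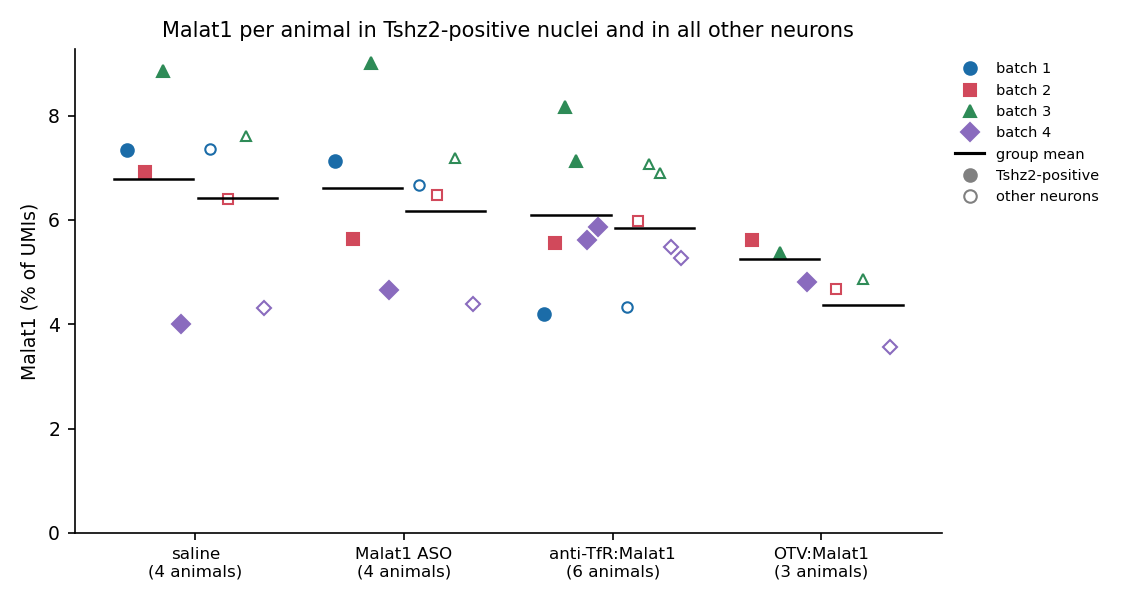
Malat1 as a percentage of UMIs in each animal, in Tshz2-positive nuclei (filled) and in all other neurons (open), with colour and shape for the deposited batch and a line for the group mean. Tshz2-positive nuclei run from 4.01% to 8.86% under saline and from 4.80% to 5.62% under OTV:Malat1, and the groups overlap.

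Comparing the nuclei with other neurons of the same animal takes out what all neurons of that animal share. Malat1 in Tshz2-positive nuclei minus that in other neurons, on the log2 scale, was -0.00, 0.11, 0.22 and -0.10 in saline animals and 0.10, -0.20, 0.33 and 0.08 in free ASO animals. In anti-TfR:Malat1 animals it ran from -0.10 to 0.21 with a median of 0.04. In OTV:Malat1 animals it was 0.27, 0.14 and 0.43, above 0 in all 3. Under OTV:Malat1 the Tshz2-positive nuclei thus held more Malat1 than the other neurons around them, with 2 of the 3 animals above every saline animal. The other Slc17a7-positive neurons of these 3 animals were above that reference too. They were at 5.50%, 5.85% and 4.16% of UMIs against 4.67%, 4.86% and 3.57%. Tshz2-positive minus Cux2-chosen nuclei gave -0.19, -0.41 and 0.28, minus Rorb-chosen 0.25, 0.46 and 0.37, and minus Foxp2-chosen 0.09, -0.06 and 0.38. Over all groups the Tshz2-positive nuclei were below other neurons in 5 of 17 animals.

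The OTV:Malat1 minus saline difference of these values was 0.22 (two-sided exact permutation p = 0.114, adjusted 0.229 over 4 tests), and within batches 2, 3 and 4 it was 0.15, -0.08 and 0.53. Against anti-TfR:Malat1 it was 0.23 (exact p = 0.0714, adjusted 0.229), and 0.37, 0.01 and 0.33 within those batches. On the same reference of all other neurons, the difference from saline was -0.01 for anti-TfR:Malat1 (exact p = 0.924) and 0.02 for free ASO (exact p = 0.914; 0.01 without Malat1 ASO animal 1). With the other Slc17a7-positive neurons as the reference, the OTV:Malat1 minus anti-TfR:Malat1 difference was 0.25 and passed the unadjusted threshold (exact p = 0.0476). On that reference Tshz2-positive nuclei were below in 14 of 17 animals, and the exceptions were Malat1 ASO animal 3 and OTV:Malat1 animals 1 and 3.

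**Figure D4:**
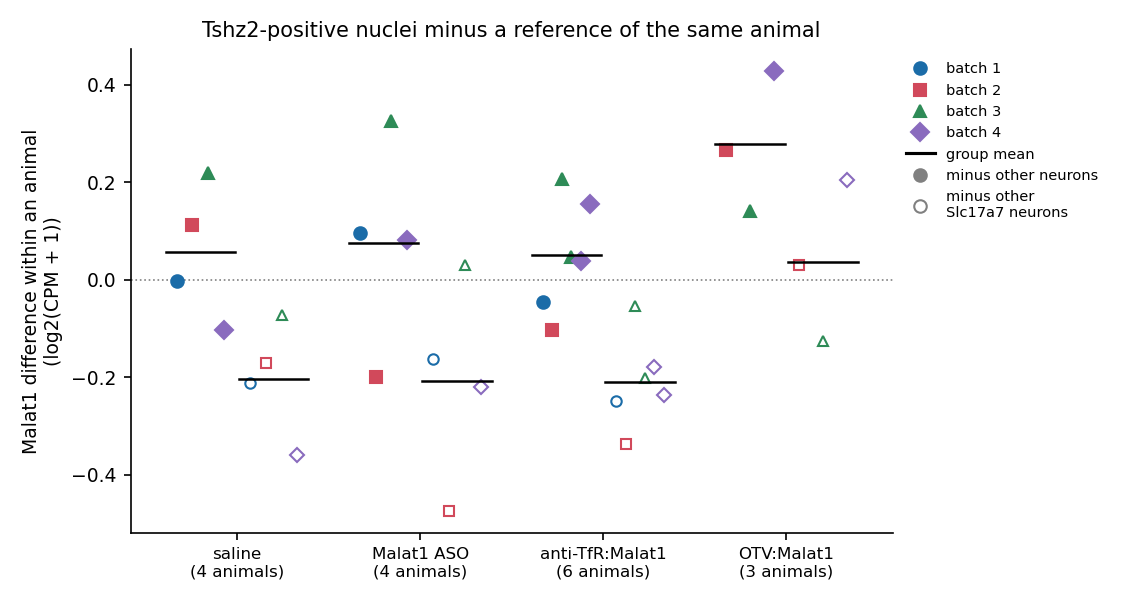
Malat1 in Tshz2-positive nuclei minus Malat1 in other neurons (filled) or in other Slc17a7-positive neurons (open) of the same animal, on the log2(CPM + 1) scale, 1 point per animal with group means as lines. The OTV:Malat1 animals lie at 0.27, 0.14 and 0.43 on the first reference.

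Single nuclei were also compared. Malat1 per nucleus had a median of 3.86% to 8.19% in saline animals and 4.46% to 4.91% in OTV:Malat1 animals, and the lowest nucleus of all, at 0.748%, was in OTV:Malat1 animal 3. To count nuclei low in Malat1 at equal depth, each was thinned to 2000 UMIs, which left out 1 nucleus, and called low under 61 Malat1 UMIs. That limit is the 10th percentile of the saline nuclei with saline animals weighted equally, which sets the saline mean near 10%. The shares were 1.75%, 4.35%, 0% and 33.3% in saline animals, 2.94%, 0%, 0% and 7.14% in free ASO animals, and 15.4%, 25.0% and 18.8% in OTV:Malat1 animals. In anti-TfR:Malat1 animals they ran from 0% to 20.6%. Every OTV:Malat1 animal was thus above 3 of the 4 saline animals, and saline animal 4, with 9 nuclei, was above all of them. The thinned shares carry wide counting error, since a group of 9 to 68 nuclei stands behind each. The OTV:Malat1 mean lay 13.1 percentage points above that of anti-TfR:Malat1 (two-sided exact permutation p = 0.0714, adjusted 0.286 over 4 tests) and 9.85 above that of saline (exact p = 0.343). Without anti-TfR:Malat1 animal 1 the first difference was 15.85 (exact p = 0.0357). Without saline animal 4, which also moves the limit, the difference from saline was 36.97 (exact p = 0.1, the smallest that test allows), and the anti-TfR:Malat1 and free ASO differences from saline were 14.27 and 14.84 instead of -3.21 and -7.34. Without Malat1 ASO animal 1 the free ASO difference was -7.48.

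Malat1 differed by cluster, and cluster 7 was the lowest of the 5 with most nuclei, at 4.69% over all animals against 6.36% to 7.24%. Cluster 7 was singled out after its values were seen, so no test is given, and whether Malat1 entered the clustering is not given in the sources used here. In its Tshz2-positive nuclei Malat1 took 5.85%, 4.40%, 7.52% and 3.42% of UMIs in saline animals and 6.45%, 3.84%, 5.40% and 3.00% in free ASO animals. It ran from 3.44% to 5.23% in anti-TfR:Malat1 animals and was 2.57%, 2.04% and 1.64% in OTV:Malat1 animals. All 3 OTV:Malat1 values were below those of the 14 other animals. They rest on 2, 4 and 2 nuclei, and the other groups on 13, 15 and 35 nuclei in all.

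The other Slc17a7-positive neurons of cluster 7 overlapped between saline and OTV:Malat1, from 4.13% to 7.77% under saline and from 3.57% to 5.62% under OTV:Malat1. That overlap rests on saline animal 4, at 4.13%, as the 3 other saline animals were at 6.90% to 7.77%. The Tshz2-positive nuclei of that cluster were below these other neurons in 17 of 17 animals. In the other 4 clusters the Tshz2-positive nuclei of OTV:Malat1 and saline animals overlapped, for example from 4.36% to 5.37% against 5.11% to 7.23% in cluster 8 and from 4.76% to 9.42% against 4.23% to 10.1% in cluster 6. The overlap in cluster 8 rests on saline animal 4, whose 1 nucleus was at 5.11%, while the 3 other saline animals were at 6.31% to 7.23%. In cluster 3 it rests on the same animal, whose 2 nuclei were at 4.88%. The 3 other saline animals were at 8.47% to 9.79% there, against 4.03% to 5.71% under OTV:Malat1. In clusters 6 and 5 the overlap did not rest on that animal. Saline animals 1 to 3 were at 6.08% to 10.1% and 6.35% to 11.2% there, against 4.76% to 9.42% and 6.19% to 7.90% under OTV:Malat1. In these clusters the Tshz2-positive nuclei of all 3 OTV:Malat1 animals were above the other Slc17a7-positive neurons, unlike in cluster 7. In clusters 8 and 3 the OTV:Malat1 animals went both ways. The other Slc17a7-positive neurons of cluster 8 did not overlap, at 3.92% to 5.36% under OTV:Malat1 (113 nuclei) against 5.40% to 9.71% under saline (109 nuclei). Those of clusters 6, 3 and 5 overlapped, and only through saline animal 4. The 3 other saline animals were at 7.79% to 8.60%, 7.91% to 9.25% and 8.47% to 10.8% in that order. The OTV:Malat1 animals were at 4.06% to 5.43%, 3.96% to 5.79% and 4.55% to 6.72%.

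**Figure D5:**
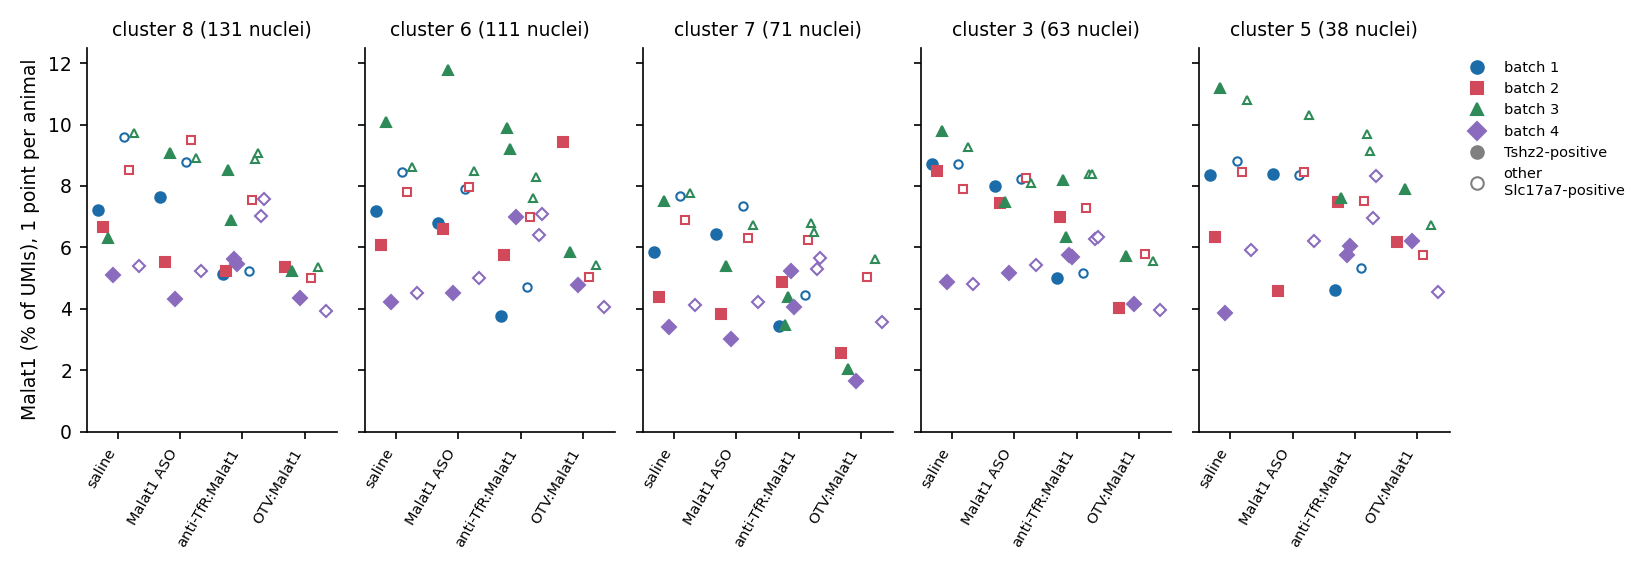
Malat1 as a percentage of UMIs per animal in the Tshz2-positive nuclei (filled) and the other Slc17a7-positive nuclei (open) of the 5 clusters with most members, by group, with colour and shape for batch. In cluster 7 the OTV:Malat1 points lie at 2.57%, 2.04% and 1.64%, below all others, and rest on 8 nuclei.

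Changes in other genes were sought across the transcriptome with edgeR's quasi-likelihood test on UMIs summed per animal. As designed, an animal needed 20 or more Tshz2-positive nuclei. That left 8 animals: saline 1 and 2, Malat1 ASO 1, anti-TfR:Malat1 1, 2, 3 and 6, and OTV:Malat1 2. Groups of 1 animal borrow their spread from the others, so those comparisons speak of that animal. A fit of all 17 animals was added after the counts of nuclei were known, and its values stand beside the first.

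With 8 animals 0 of 5505 genes other than Malat1 and the rule's genes passed an adjusted p of 0.05 for OTV:Malat1 against saline (0%), and 353 had an unadjusted p under 0.05 (6.41%). Counts were 0 for anti-TfR:Malat1 against saline (0%; 290 unadjusted, 5.27%) and 0 for OTV:Malat1 against anti-TfR:Malat1 (0%; 389 unadjusted, 7.07%). DESeq2 on the same animals called 0 in each of these 3. With all 17 animals 0 of 2313 genes passed in any comparison with edgeR or with DESeq2. Unadjusted, edgeR's 17-animal counts were 132 (5.71%), 113 (4.89%) and 107 (4.63%) in the same order and 56 (2.42%) for free ASO against saline. On simulated counts the 8-animal fit found 41.5% of genes changed 2-fold for anti-TfR:Malat1 and 5.21% for OTV:Malat1, against 78.3% and 51.0% with 17 animals. These rates cover different genes, since 5058 and 5066 were kept with 8 animals and 2210 and 2146 with 17. Apart from the changes put in, the simulated animals shared 1 mean profile, with no batch or cluster differences. The 0 counts of the 8-animal fit changed with the deposited batch as a block, to 3 genes for OTV:Malat1 against saline, 12 for anti-TfR:Malat1 against saline and 5 for OTV:Malat1 against anti-TfR:Malat1, with 1 residual degree of freedom, and with no low-count filter, to 3, 17 and 5. With 17 animals and the batch block they were 0. In 2 comparisons they also depended on single animals. Anti-TfR:Malat1 against saline gave 11 genes without anti-TfR:Malat1 animal 6, 5 without animal 2, 1 without animal 1, and 1 and 2 without saline animals 1 and 2, and OTV:Malat1 against anti-TfR:Malat1 gave 2 without anti-TfR:Malat1 animal 3 or 6. Under the 4 other settings run on 17 animals the counts were 0 in each comparison.

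Free ASO against saline gave 3 lower genes with 8 animals (0.0545%), namely Xist, its antisense partner Tsix, and Gm47283; 150 genes had an unadjusted p under 0.05 (2.72%). Free ASO was represented by Malat1 ASO animal 1 alone, DESeq2 called 1 gene, and without saline animal 2 edgeR called 1. Xist was at 0 CPM there and at 819 and 1090 CPM in the saline animals, Tsix at 4.28 against 78.8 and 99.6 CPM, and Gm47283 at 2.14 against 146 and 299 CPM. The edgeR adjusted p was 1.21e-11, 0.00512 and 0.00477. The other free ASO animals had Xist at 769, 961 and 1217 CPM, against 819 to 1273 CPM in the saline, anti-TfR:Malat1 and OTV:Malat1 animals. Gm47283 also varied among the other animals. It was at 0 CPM in OTV:Malat1 animal 1, whose other neurons had 5.28 CPM, at 62.8 CPM in Malat1 ASO animal 2 and at 59.3 CPM in anti-TfR:Malat1 animal 2, and reached 339 CPM. Tsix ran from 16.6 to 152 CPM in the other 16 animals. With 17 animals Xist had an edgeR adjusted p of 1.00 and DESeq2 called 0 genes.

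In the gene-wide fits Malat1 was lower by 0.47 on the log2 scale under OTV:Malat1 than under saline (SE 0.233, edgeR adjusted p = 0.772, 1 against 2 animals), and by 0.38 with 17 animals (SE 0.230, adjusted p = 0.939). Anti-TfR:Malat1 gave -0.24 (SE 0.160, edgeR adjusted p = 0.994) and free ASO, from Malat1 ASO animal 1 alone, -0.02 (SE 0.228, edgeR adjusted p = 1.00). When 8 or more Tshz2 UMIs were asked for, 6 animals kept 20 nuclei, and anti-TfR:Malat1 was lower than saline by 0.51 (edgeR adjusted p = 0.0017, 3 against 2 animals). Both fits leave out saline animals 3 and 4, the highest and the lowest saline animals in Malat1 at 8.86% and 4.01%. They differ on the treated side, since the 8-animal fit held 4 anti-TfR:Malat1 animals, which ran from 4.20% to 8.17%. In the exact tests of the Malat1 level, 91 alternative values kept their direction and side of the threshold and 8 changed sign. For OTV:Malat1 against saline or free ASO the smallest possible p is 0.0571, and within batches it is 0.0556 or more. The side of the threshold could not change in those tests. Meg3, a nuclear RNA the oligonucleotide does not target, differed from saline by 0.20 under OTV:Malat1 with 17 animals (SE 0.143, edgeR adjusted p = 0.9499), and its level was higher in all 3 OTV:Malat1 animals than in the 4 saline animals. Tfrc is the transferrin receptor gene of the mm10 annotation, and all these mice are homozygous for the Human TfR knock-in. It was at 33.3 CPM in the 1 OTV:Malat1 animal of the 8-animal fit against a mean of 40.4 CPM in saline (log2 -0.23, SE 0.987). Tfrc was too low for the 17-animal fit.

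Among the genes nearest to the threshold for OTV:Malat1 against saline in the 8-animal fit was Cdh12, an adhesion cadherin, at 357 CPM in the 1 OTV:Malat1 animal against a mean of 948 (edgeR adjusted p = 0.102). With 17 animals Cdh12 was at 606 against 818 CPM, and the groups overlapped (log2 -0.50, SE 0.232, edgeR adjusted p = 0.857). Unc13c, a synaptic vesicle priming factor, had no UMI in that OTV:Malat1 animal and a mean of 120 CPM in saline, but 207 and 184 CPM in OTV:Malat1 animals 1 and 3. Smg5, Rtl4, Zfp804b, Polb, Hs3st2, Naaladl2 and Fam171a1 were also among the nearest genes.

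With 17 animals Impact, a regulator of the integrated stress response kinase GCN2, was at 167 CPM under OTV:Malat1 against 65.3 under saline (log2 1.24, SE 0.311, edgeR adjusted p = 0.460), and Kirrel3, an adhesion molecule of the nephrin family, at 680 against 286 CPM (log2 1.16, SE 0.314, adjusted p = 0.479). Both genes were named for their small p, so their lack of overlap between the 2 groups adds no support. With 3 against 4 animals the smallest p of an exact permutation test is 0.0571. The share of all tested genes without overlap is not given, here or for Meg3 and Tox. Kirrel3 was also at 609 CPM under anti-TfR:Malat1 (adjusted p = 0.909) and 550 CPM under free ASO (adjusted p = 1.00); these comparisons share the saline animals. Mast3, a kinase, was at 41.1 against 136 CPM in the saline animals (log2 -1.58, edgeR adjusted p = 0.460).

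For anti-TfR:Malat1 against saline the nearest genes in the 8-animal fit included Gm32647, Dcc, a netrin receptor, Fbxl7, Fhit and Kcnc2, each with an edgeR adjusted p of 0.0962. Dcc was at 1096 against 515 CPM, and Kcnc2, a fast potassium channel, at 141 against 326 CPM. With 17 animals Kcnc2 was at 138 against 354 CPM (log2 -1.23, SE 0.306, edgeR adjusted p = 0.909). Grik1 came nearest for OTV:Malat1 against anti-TfR:Malat1, at 723 CPM in the 1 OTV:Malat1 animal against a mean of 204 (adjusted p = 0.0549), and at 555 against 140 CPM with 17 animals (log2 1.79, SE 0.455, edgeR adjusted p = 0.422). None of these passed the threshold.

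The genes that mark these nuclei were also followed across treatments. They were picked from these data for going with Tshz2, whose count chose the nuclei, so this comparison is tied to the rule. Over all animals Tox was at 361 CPM in nuclei with 5 Tshz2 UMIs and at 638 CPM in those with 8 or more. Vwc2l was at 286, 56.1, 365 and 87.3 CPM in saline animals and at 414, 274 and 334 CPM in OTV:Malat1 animals, and the groups overlapped (17 animals, log2 0.69, SE 0.369, edgeR adjusted p = 0.937). Tox was at 506, 498, 554 and 559 CPM in saline animals and at 801, 648 and 714 CPM in OTV:Malat1 animals, with no overlap (log2 0.45, SE 0.215, unadjusted p = 0.0465, edgeR adjusted p = 0.857). Etv1 was at 184, 224, 131 and 332 CPM in saline animals and at 207, 465.5 and 357 CPM in OTV:Malat1 animals (log2 0.77, SE 0.325, edgeR adjusted p = 0.855). None passed the threshold. Tshz2, a gene of the rule, was at 1613 to 2165 CPM in saline animals and 2161 to 2798 CPM in OTV:Malat1 animals. The median depth of the chosen nuclei was 5048 to 6821 UMIs in saline animals and 4904.5 to 5411 UMIs in OTV:Malat1 animals. The part of Tshz2 level and depth in these differences was not tested.

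The listed pathways showed no called change in any of the 4 comparisons with 17 animals. Of 21 tested glutamate receptor genes 12 had a positive OTV:Malat1 minus saline difference, with a median of 0.05, beside 0.01 over all genes tested, and Grm5 and Grik2 were higher at an unadjusted p under 0.05, as were 3.16% of all genes tested. Of 19 tested potassium channel genes 7 were positive, with a median of -0.21, and Kcnc2 was lower at an unadjusted p under 0.05, as were 2.55% of all genes tested. Of 19 tested transcription regulators Tox and Etv1, which go with Tshz2, were higher at that level, and the median was 0.08. Of 9 tested nuclear noncoding RNAs 7 were positive with a median of 0.10, and of 8 tested speckle and paraspeckle proteins, the structures in which Malat1 and its neighbour Neat1 lie, 5 were positive with a median of 0.05. No interferon response gene and none of the 15 listed neighbours of Malat1 on chromosome 19 was high enough to be tested; Neat1 was at 4.88 CPM on average. The count of 15 p53 target genes left 1 that could be tested, and 3 of 10 heat shock genes were tested. The 8-animal fit, with 1 OTV:Malat1 animal, gave other medians against saline. They were -0.11 for glutamate receptors (9 of 24 positive), -0.31 for potassium channels (6 of 25) and -0.01 for transcription regulators (11 of 23). For noncoding RNAs it was -0.02 (4 of 9) and for speckle proteins 0.11 (9 of 14). Of 10 immediate early genes 2 were positive there (median -0.93), and 0 for anti-TfR:Malat1 against saline (-0.91). With 17 animals 2 of them were tested (medians -0.47 and -0.19).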

How the data were processed

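Nuclei of posterior brain from 17 animals were profiled as above. The UMI counts per gene and nucleus were used as deposited by the authors, with the deposited labels for cell type, doublet, batch and cluster and the label's highest prediction score, a fraction between 0 and 1. The submitters' processing notes name Cell Ranger 6.0.1, Seurat 4 and mm10; their settings are not given in the sources used here. Doublets were removed by the deposited call, and 9 metadata columns were not used. Gene positions are from the mm10 annotation given with the files.

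The members and gene lists were chosen with earlier results of these data known. UMIs were summed over members per animal and given as CPM. Groups were compared by two-sided exact permutation of animals on log2(CPM + 1), with Benjamini-Hochberg adjustment over each family, and across genes with edgeR 4.0.16 (limma 3.58.1, R 4.3.3; TMM, low-count filter, threshold 0.05), with DESeq2 1.42.0 as an alternative. Genes named are Malat1, Neat1, Meg3 and Tfrc, up to 10 each way that passed without overlap or else the 5 of smallest p, and for the profile the 20 highest and 10 lowest log2 differences among genes with 1 direction in all 17 animals. Other genes of the lists and the genes that differ between clusters were chosen after their values were seen. Counting intervals are 95% Wilson intervals, and they cover counting error only. P-values measure the spread between these animals. The gene-wide fits were tested on simulated data. Python 3.11.15 with numpy 2.4.6, scipy 1.17.1 and pandas 2.3.3 was used. The saline labels also carry the dose text of the conjugates, which was not used. Some genes that the naming rule or the lists hold are not reported here.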

Additional observations from a re-analysis of the deposited data

Results flagged for a closer look

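In 36 groups of values examined, 5 held 1 animal far from the others, where chance gives about 1 group in 20. Malat1 ASO animal 1 had 0.982% of its neurons among the Tshz2-positive nuclei, against 0.166% in the nearest of the other free ASO animals; this is the library without Xist and lies in deposited batch 1. Saline animal 4 had 33.3% of its 9 Tshz2-positive nuclei low in Malat1, against 4.35% in the nearest saline animal, and anti-TfR:Malat1 animal 1 had 20.6% of its 34 low, against 6.67%. Vwc2l was at 397 CPM in anti-TfR:Malat1 animal 2, against 266 CPM in the nearest of its group, and Nxph1 was at 312 CPM in anti-TfR:Malat1 animal 4, which had 12 Tshz2-positive nuclei, against 135 CPM.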

How the results depend on the processing

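Of the alternative values, 321 kept their direction and side of the threshold or stayed within 1.5 times a count. Another 46 changed sign, 33 counts moved and 3 values passed the threshold. Where the smallest possible p of an exact test is above the threshold, the side could not change. Where no cause is named it was not tested. Leaving out 1 animal at a time, Malat1 differences (log2) ran from -0.5455 to -0.164 for OTV:Malat1 against saline, from -0.3621 to 0.01938 for anti-TfR:Malat1 against saline, from -0.2579 to 0.1299 for free ASO against saline and from -0.2584 to 0.05942 for anti-TfR:Malat1 against free ASO. Malat1 relative to other neurons ran from -0.0597 to 0.04816 for anti-TfR:Malat1 and from -0.06341 to 0.1119 for free ASO, both against saline. The share of neurons (percentage points) ran from -0.2267 to 0.01223 for OTV:Malat1, from -0.07563 to 0.1633 for anti-TfR:Malat1 and from -0.2071 to 0.1668 for free ASO against saline. The low-Malat1 share ran from -5.999 to 14.27 for anti-TfR:Malat1 and from -8.878 to 14.84 for free ASO against saline, and from 10.42 to 15.85 for OTV:Malat1 against anti-TfR:Malat1. Gene counts in the 8-animal fit ran from 0 to 11 for anti-TfR:Malat1 and from 1 to 2 for free ASO against saline, and from 0 to 2 for OTV:Malat1 against anti-TfR:Malat1.

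With 20 or more nuclei per animal the free ASO Malat1 difference was 0.00268. Relative to other neurons it was -0.1616 at 8 or more Tshz2 UMIs, -0.003484 with other Slc17a7-positive neurons as reference and -0.05956 without cluster 6, and OTV:Malat1 against anti-TfR:Malat1 was 0.2466 with that reference. The OTV:Malat1 share difference from saline was 0.01223 within batches and 0.3332 of Slc17a7-positive neurons. The within-batch value leaves out saline animal 1, as batch 1 holds no OTV:Malat1 animal, and so equals the value without that animal. The anti-TfR:Malat1 share difference was -0.0149 at 8 or more Tshz2 UMIs and -0.008185 at 3000 or more UMIs per nucleus. The free ASO one was -0.03995 at 8 or more Tshz2 UMIs. The low-Malat1 share difference of anti-TfR:Malat1 from saline was 7.104 at 8 or more Tshz2 UMIs, 3.259 thinned to 1000 UMIs, 3.497 at the 25th percentile and 4.485 without cluster 6, and that of free ASO 5.282 thinned to 1000 UMIs and 2.644 at the 25th percentile.

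In the 8-animal edgeR fit the genes called for OTV:Malat1 against saline were 3 with batch as a block, 3 with no filter and 5 with only the groups compared. For anti-TfR:Malat1 against saline they were 12 with batch as a block, 10 at 8 or more Tshz2 UMIs, 17 with no filter and 6 without cluster 6, and Malat1 was at -0.5127 at 8 or more Tshz2 UMIs. For free ASO against saline they were 5 with batch as a block, 7 at 8 or more Tshz2 UMIs, 1 with DESeq2, 5 with no filter, 6 with only the groups compared and 1 without cluster 6, against 0 with 17 animals and under its 4 alternatives, and Malat1 was at 0.06448 with batch as a block and 0.005943 with no filter. For OTV:Malat1 against anti-TfR:Malat1 they were 5 with batch as a block, 1 with RLE size factors, 5 with no filter and 1 with only the groups compared.

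The deviations of same-numbered animals had a mean correlation of 0.0124 over 21 pairs, 1 of them over 0.1. With 9 to 68 nuclei per animal, counting noise holds such correlations low, so this cannot tell whether the numbers pair the animals. In the saline and free ASO groups the number is also that of the deposited batch. With the replicate block the 8-animal counts were 0, 12, 5 and 3 for OTV:Malat1, anti-TfR:Malat1 and free ASO against saline and for the 2 conjugates against each other, and 0 in each with 17 animals; Malat1 was at 0.06448 for free ASO against saline and 4.898e-05 for OTV:Malat1 against anti-TfR:Malat1. In the exact test the block gave a Malat1 level difference of -0.5455 for OTV:Malat1 against saline. It leaves out saline animal 4, as no OTV:Malat1 animal has that number, and so equals the value without that animal. Depth limits the gene-wide fits to abundant genes, and the 3 OTV:Malat1 animals limit the exact tests of that group, whose smallest p is 0.0571 against saline and 0.0238 against anti-TfR:Malat1.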
